A study of Mus musculus with 2 samples.

Results

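The Kruppel-like factors described here are 10 zinc finger transcription factor genes, Klf2, Klf3, Klf4, Klf5, Klf6, Klf9, Klf10, Klf11, Klf13 and Klf15, taken by symbol from a table of 20002 genes measured in mouse kidney. All 10 were in the table, and all 10 had at least 10 scaled reads in 1 or both libraries. The study examined what loss of Regnase-2, an RNA-degrading enzyme encoded by Zc3h12b, does to the kidney. RNA-seq was performed on whole kidney from C57BL/6J mice, with 1 library from Control mice and 1 from mice labelled CKO. Poly(A) RNA of left kidney was made into stranded libraries, and the sources used here do not say whether the RNA of a library was pooled over mice. No difference between the libraries has a replicate check.

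The CKO mice received adeno-associated virus serotype 9 (AAV9) with a short hairpin RNA (shRNA) against Regnase-2 by tail vein, at 11 weeks of age. The labels call these mice proximal tubule-specific knockouts, whereas the methods of this comparison describe a knockdown by shRNA, with a virus that mainly enters proximal tubule cells. Control mice received AAV9 too, described as an empty vector in one section of the methods and as a control shRNA in another. The methods place the RNA-seq kidneys at 14 weeks of age and the AAV9 harvest at 16 weeks. The labels list no further treatment for either group. After removal of the constant found in each column, the Control library held 38851231 reads with a median of 284 per gene, and the CKO library 43588721 reads with a median of 513.5 per gene.

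Kruppel-like factors bind GC-rich and CACCC sequences through their C-terminal C2H2 zinc fingers, and differ in the N-terminal regions that recruit coactivators or corepressors. Klf2, Klf4, Klf5 and Klf6 belong to the mostly activating group, Klf9, Klf10, Klf11 and Klf13 recruit the Sin3A corepressor, and Klf3 recruits CtBP. In kidney, Klf2 is known from the endothelium, Klf4 and Klf6 from podocytes and tubules, Klf5 from the collecting duct, and Klf15, first described as a kidney-enriched factor, from podocytes, stroma and tubules.

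Zc3h12b, the target of the shRNA, was covered by 47 Control and 59 CKO reads. Its log2 ratio of CKO over Control was -0.25, with a 95% interval from -0.83 to 0.33. A difference in the target mRNA was not detectable at this depth, so this gene does not check the group labels, and its ratio turned positive under equal library totals (0.16) and on the deposited scale, with neither floor nor scaling applied (0.42). Here and throughout, a log2 ratio compares the CKO reads, multiplied by 0.667 (the median over genes of Control over CKO reads), with the Control reads after 1 was added to each. The 95% interval is the exact Clopper-Pearson interval of the ratio and covers counting error only.

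In the CKO library 3 of the 10 factors, Klf4, Klf5 and Klf6, were at least 2-fold higher, and 0 were at least 2-fold lower. Of all 17469 genes tested, 13.4% passed 2-fold upward and 5.35% passed it downward. The median log2 ratio was 0.38 over the 10 factors and 0.02 over all genes tested, and 7 of the 10 factors were above 0, against 51.5% of all genes tested. Counting intervals lay above 0 for 6 factors, below 0 for 3 (Klf9, Klf11 and Klf15) and across 0 for Klf2. Among all genes past 2-fold, 71.4% were higher. That split moved to 89.9% with equal library totals, where the median of the genes tested was 0.44, and to 96.5% on the deposited scale, where it was 0.57. Klf4, Klf6, Klf9 and Klf15 stayed on the same side of 0 and of 2-fold under every scaling tried, whereas Klf11 turned positive under equal totals (0.19) and on the deposited scale (0.38).

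**Figure D1:**
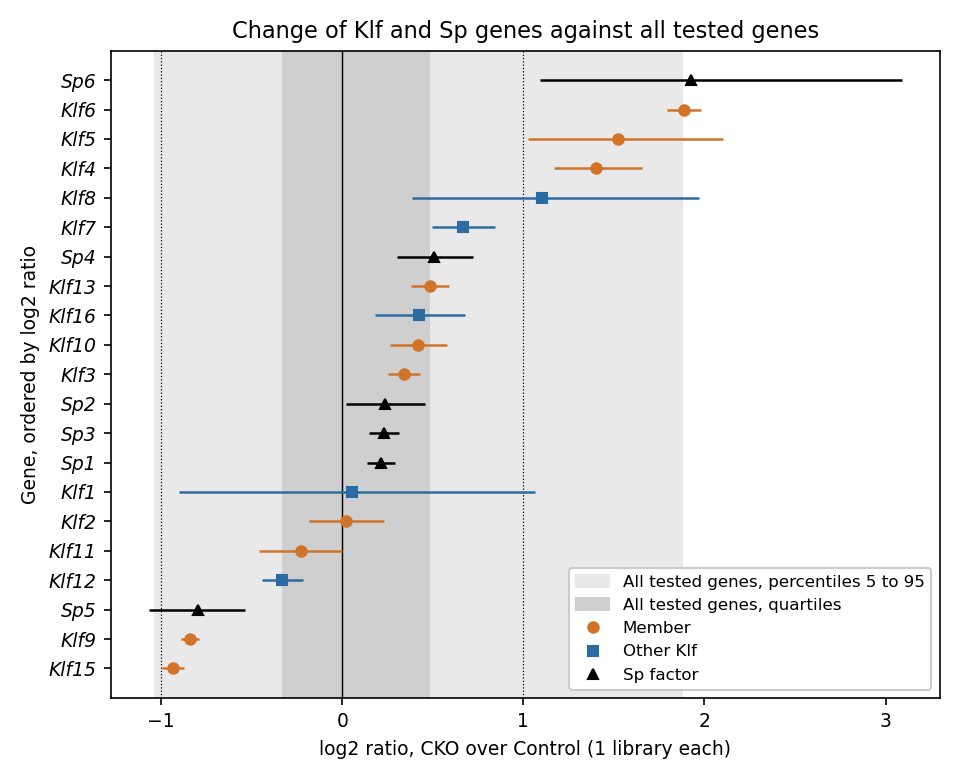
Log2 ratio of CKO over Control reads for the 10 members, 5 other Klf genes and 6 Sp genes, ordered by ratio. Lines are exact 95% intervals for counting error, dark and light bands hold the quartiles and percentiles 5 to 95 of all 17469 genes tested, and dotted lines mark 2-fold. Klf6 at 1.89, Klf5 at 1.52 and Klf4 at 1.40 lie right of 2-fold, and Klf9 at -0.84 and Klf15 at -0.94 lie left of the quartiles. Klf11 and Klf12, left of 0 here, were right of it under equal totals and on the deposited scale.

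**Figure D2:**
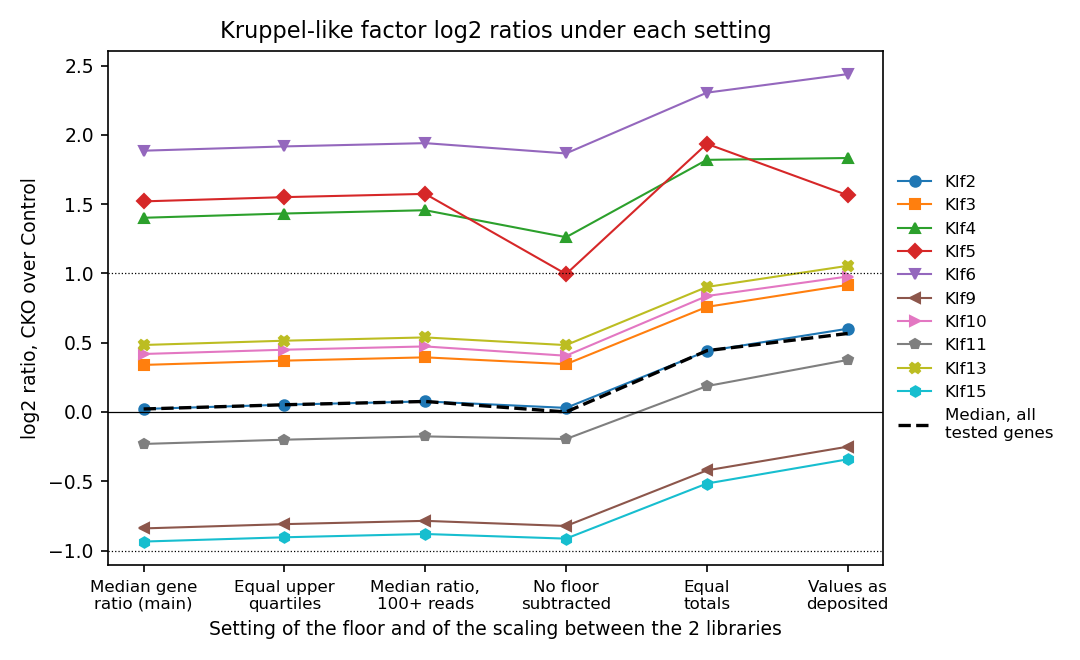
Log2 ratio of each factor under 6 settings of the floor and of the scaling between libraries, with the median of all genes tested as a dashed line and 2-fold as dotted lines. Klf2 follows the dashed line, Klf11 is above 0 under equal totals and on the deposited scale, and Klf5 touches 2-fold from below (0.9955) with no floor subtracted.

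Klf6, an immediate-response factor first cloned as a binder of a core promoter element, lies at chr13:5861482-5870394 on the plus strand of GRCm38 with 4 exons in its longest coding transcript. It was covered by 1100 Control and 6103 CKO reads. After scaling this was 3.70-fold higher (3.47 to 3.95), and Klf6 ranked 853 from the top of 17469 genes. Klf6 had the highest ratio of the 10 factors, and its order against Klf5 was not resolved, since the wider interval of Klf5 (below) holds the value of Klf6.

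Klf4, known for its part in epithelial barrier formation, podocyte biology and reprogramming to pluripotency, lies at chr4:55527143-55532466 on the minus strand. It was covered by 178 Control and 708 CKO reads, and after scaling it was 2.65-fold higher (2.25 to 3.14). Klf5, which drives proliferation in several epithelia, lies at chr14:99298691-99315036. It was covered by 37 Control and 162 CKO reads, and after scaling it was 2.92-fold higher (2.03 to 4.29). The intervals of Klf4 and Klf5 overlap, so the order of these factors was not resolved at this depth. Klf5 was the least read member in both libraries and fell just short of 2-fold (log2 ratio 0.9955) when the values were scaled without removing the column constants.

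The promoters of Klf4 and Klf6 are shown because both factors were past 2-fold. RefSeq promoters of GRCm38.p6 were matched for 8 of the 10 factors, all but Klf5 and Klf10. Each window runs from 250 bases before to 50 bases after the annotated start, 5′ to 3′ on the strand of the gene: chr4:55532426-55532725 on the minus strand for Klf4 and chr13:5861239-5861538 on the plus strand for Klf6. Capitals mark every match, on either strand, to GGGCGG (the GC box), CCACCC (the CACCC box), TGACGTCA (the cyclic AMP response element), CTANNNNTA (a MEF2-like match), GGGNNTTCC (a kappa B-like match) or AGAACA (a glucocorticoid half-site).
Klf4: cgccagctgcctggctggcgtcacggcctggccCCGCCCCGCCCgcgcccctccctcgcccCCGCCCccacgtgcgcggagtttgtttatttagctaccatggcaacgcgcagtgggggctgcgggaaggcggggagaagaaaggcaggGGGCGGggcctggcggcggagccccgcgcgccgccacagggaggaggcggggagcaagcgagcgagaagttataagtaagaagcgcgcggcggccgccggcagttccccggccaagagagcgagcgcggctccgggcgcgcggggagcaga
Klf6: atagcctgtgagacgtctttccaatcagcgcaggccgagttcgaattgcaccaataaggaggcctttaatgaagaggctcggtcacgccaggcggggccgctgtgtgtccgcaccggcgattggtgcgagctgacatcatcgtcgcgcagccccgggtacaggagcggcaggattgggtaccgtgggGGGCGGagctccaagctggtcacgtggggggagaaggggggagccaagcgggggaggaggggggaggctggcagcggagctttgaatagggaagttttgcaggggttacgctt
All capitals in both windows belong to GC boxes. Klf4 held 4, starting at positions -217, -212, -189 and -101 from the start, and Klf6 held 1, at -63. A GC box was present in 7 of the 8 factors' windows and in 35.7% of 32851 promoters of the same length. The CACCC box was present in 3 of the 8 (Klf2, Klf3 and Klf13) and in 31.5% of all promoters. The MEF2-like match was present in Klf2 and Klf9 and in 21.0% of all promoters. The cyclic AMP response element, the kappa B-like match and the glucocorticoid half-site were in 0 of the 8 windows and in 1.79%, 5.82% and 19.0% of all promoters. The windows of the factors were rich in G and C, at 74.3% for Klf4, 63.0% for Klf6 and a median of 72.7% over the 8, against a median of 52.7% over all promoters. A match describes the letters in the window and does not mark a bound site.

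Klf2, which laminar flow induces in endothelial cells, was covered by 325 Control and 495 CKO reads. Its log2 ratio was 0.02 with an interval from -0.18 to 0.23, so a difference in Klf2 was not detectable at this depth. Klf2 lay beside the median of all genes tested, with 50.1% of them below it, and it kept beside that median when totals were made equal (0.44 for both). The mostly activating group in the table adds Klf1 and Klf7 to Klf2, Klf4, Klf5 and Klf6, a grouping applied after the values were seen. In it 6 of 6 were above 0, against 51.5% of all genes tested, but the intervals of Klf1 and Klf2 hold 0. The 3 past 2-fold were Klf4, Klf5 and Klf6, already given, against 13.4% of all genes tested upward. The median log2 ratio of the group was 1.03. Klf7, outside the members, was covered by 384 Control and 914 CKO reads, at a log2 ratio of 0.66, and it passed 2-fold under equal totals (1.08) and on the deposited scale (1.204). Klf1, the erythroid factor, had 16 and 25 reads, too few to place its ratio on a side of 0 (-0.90 to 1.06).

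Klf9 and Klf15 were the lowest of the 10 factors, and both are known to be induced by glucocorticoids through the glucocorticoid receptor. Klf15 lies at chr6:90462576-90475238 on the plus strand. It was covered by 4839 Control and 3795 CKO reads, and after scaling its log2 ratio was -0.94 (-0.997 to -0.874). This put Klf15 at 0.523 of its Control level (0.501 to 0.546), and 6.15% of the genes tested lay below it. Klf9, which thyroid hormone also induces, lies at chr19:23141226-23168134 on the plus strand. It was covered by 7188 Control and 6021 CKO reads, a log2 ratio of -0.84 (-0.89 to -0.79) and 0.558 of its Control level (0.540 to 0.578). Neither factor reached 2-fold, and on the deposited scale their log2 ratios were -0.34 for Klf15 and -0.25 for Klf9. Klf9 and Klf15 carried the most reads of the members in the Control library.

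Of the other Sin3A-binding factors, Klf10, an early gene of the TGF-beta response, was covered by 493 Control and 989 CKO reads, a log2 ratio of 0.42 (0.26 to 0.58). Klf11, its closest relative, was covered by 281 Control and 359 CKO reads, at a log2 ratio of -0.23 (-0.46 to -0.0011), positive under equal totals and on the deposited scale as given above. Klf13, known in T cells as an activator of Ccl5, was covered by 1071 Control and 2247 CKO reads, at a log2 ratio of 0.48 (0.38 to 0.59), and it passed 2-fold (1.06) on the deposited scale. Klf16, the remaining gene of this group in the table, was covered by 204 Control and 411 CKO reads, at a log2 ratio of 0.42. In this group, also formed after the values were seen, 3 of 5 genes were above 0, against 51.5% of all genes tested. In either direction 0 were past 2-fold, and the median was 0.42. Klf9 was the lowest of its group and the member nearest to Klf15 in its ratio.

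Klf3, a CtBP-binding repressor of erythroid and fat cells, was covered by 1519 Control and 2884 CKO reads. Its log2 ratio was 0.34 (0.25 to 0.43). Klf8 and Klf12 share the CtBP motif of Klf3 and split in direction. Klf8 was covered by 19 Control and 63 CKO reads, at a log2 ratio of 1.10 with a wide interval (0.39 to 1.97), and at 0.51 when scaled by the median ratio without removing the column constants. Klf12 was covered by 1141 Control and 1360 CKO reads, at a log2 ratio of -0.33, which turned positive under equal totals (0.087) and on the deposited scale (0.26). Genes on the opposite strand overlap Klf3, Klf13, Klf7 and Klf12 in GENCODE M21, and because the strand setting of the counting is not stated, reads of such pairs cannot be told apart. Klf14 and Klf17 were not in the table.

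The Sp factors, which share the zinc fingers and the GC-box preference of the family, had a median log2 ratio of 0.23 over the 6 in the table. Sp1 was at 0.21, Sp2 at 0.24, Sp3 at 0.23 and Sp4 at 0.51. Sp5 was the lowest at -0.80, with 256 Control and 220 CKO reads, and Sp6 the highest at 1.93, from 11 and 67 reads with an interval from 1.09 to 3.09. Sp6 dropped below 2-fold (0.79) when the values were scaled without removing the column constants. The median of the Sp factors was 0.65 under equal totals and 0.80 on the deposited scale, where Sp4 passed 2-fold (1.04). Sp7, Sp8 and Sp9 were not in the table.

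Levels of different genes were compared within a library as reads per kilobase of the longest coding transcript per 1000000 reads. In the Control library Klf15 was highest at 50.2, followed by Klf9 at 41.2, Klf3 at 7.49, Klf6 at 6.70, Klf2 at 4.53, Klf13 at 4.31, Klf10 at 4.17, Klf11 at 1.77, Klf4 at 1.51 and Klf5 at 0.284. The counting intervals of the neighbours Klf2 and Klf13, Klf13 and Klf10, and Klf11 and Klf4 overlapped. In the CKO library the order was Klf15 at 35.1, Klf6 at 33.1, Klf9 at 30.8, Klf3 at 12.7, Klf13 at 8.06, Klf10 at 7.45, Klf2 at 6.15, Klf4 at 5.36, Klf11 at 2.02 and Klf5 at 1.11. There the intervals of Klf15 and Klf6, of Klf13 and Klf10, and of Klf2 and Klf4 overlapped, and Klf6, which ranked 4 in Control, ranked 2. These orders depend on the length used. With the length of all exons joined, Klf3 fell to 3.48 in Control and 5.88 in CKO, rank 6 in both, and Klf6 ranked 3 in Control and 1 in CKO, before Klf15.

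**Figure D3:**
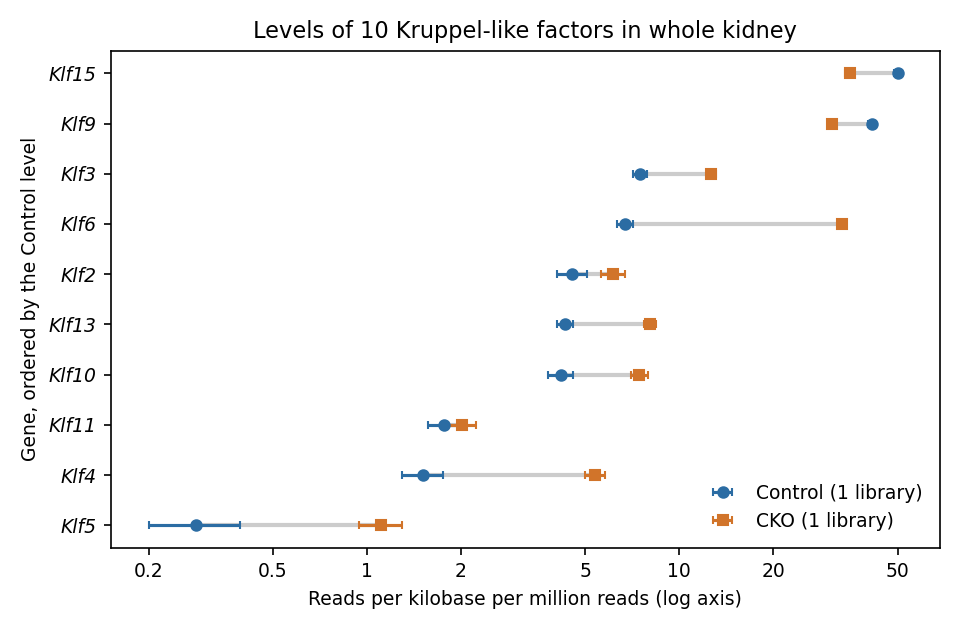
Level of each factor in the Control (circles) and CKO (squares) library, in reads per kilobase per 1000000 reads on a log axis, with exact Poisson 95% intervals for counting error. The scale makes library totals equal, so it orders genes within a library. Klf15 and Klf9 lead in Control at 50.2 and 41.2, and Klf6 at 33.1 lies between Klf15 and Klf9 in CKO.

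Shares of the summed levels of the 10 factors need no scaling between the libraries. Klf15 made up 41.1% of the sum in the Control library and 24.7% in the CKO library, and Klf9 33.8% and 21.7%. Klf6 made up 5.48% and 23.4%, and Klf4 1.24% and 3.78%. For each read of Klf15 there were 0.227 reads of Klf6 in Control and 1.61 in CKO, a 7.07-fold difference (6.55 to 7.64). Intervals of such ratios of reads are 95% intervals of an odds ratio by the normal approximation and cover counting error only. Klf9 and Klf15 kept nearly the same ratio to each other, with 1.49 and 1.59 reads of Klf9 for each read of Klf15 (1.07-fold, 1.01 to 1.13). Klf4 differed from Klf2 by 2.61-fold (2.10 to 3.24) on the same measure. These pairs were chosen after their values were seen.

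Markers of kidney cell types moved between the libraries as well, and in whole kidney fewer cells of a type and less RNA per cell cannot be told apart. Of 12 proximal tubule markers, 11 were lower (10 under equal totals and 9 on the deposited scale), 3 of them past 2-fold (1 under either of those settings). Their median log2 ratio was -0.80 in the main setting, -0.38 under equal totals and -0.22 on the deposited scale. Their summed reads were 20648 per 1000000 in Control and 15710 in CKO, and Slc22a6 was lowest at -1.62 and Slc5a12 highest at 0.41. Of 11 macrophage markers, 11 were higher, 10 of them past 2-fold, and the median was 2.67. They summed to 168 reads per 1000000 in Control and 1164 in CKO, led by Cd74 with 2610 and 23956 reads, from Csf1r at 0.51 to Lyz2 at 3.66, and Cd163 was not in the table. Of 8 fibroblast and mural cell markers, 8 were higher, 7 of them past 2-fold, with a median of 1.79 and sums of 190 and 863 reads per 1000000. Pdgfrb carried the most Control reads of that list (1513 and 3170) and was its lowest at 0.48, and Col1a1 was its highest at 2.65.

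Of 10 endothelial markers, 4 were higher (9 under equal totals) and 0 were past 2-fold, with a median of -0.08 that turned positive under equal totals (0.34) and on the deposited scale (0.50). They summed to 442 and 546 reads per 1000000, led by Plvap with 3854 and 5411 reads, from Kdr at -0.67 to Emcn at 0.14. Of 8 podocyte markers, 5 were higher and 0 were past 2-fold, with a median of 0.18 and sums of 248 and 342 reads per 1000000. Under equal totals 7 of them were higher, 1 past 2-fold, and the median was 0.60. Podxl led them with 4782 and 7595 reads, and Cdkn1c was highest at 0.99. Of 10 collecting duct markers, 8 were higher and 0 were past 2-fold, with a median of 0.47 and sums of 452 and 824 reads per 1000000. That list depended on the scaling, with 10 higher, 4 past 2-fold and a median of 0.89 under equal totals, and 6 past 2-fold and a median of 1.04 on the deposited scale. Aqp2 led them with 4762 and 12359 reads, Slc4a1 was lowest at -0.27 and Gata3 highest at 0.83. The defining markers of all of these cell types were read in both libraries, apart from Cd163.

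Each factor was also set against the summed marker reads of the same library, a measure that needs no scaling between libraries and was chosen after the values were seen. Against the proximal tubule markers, Klf9 differed by 0.981-fold (0.948 to 1.02) and Klf15 by 0.919-fold (0.880 to 0.959). Klf6, Klf5 and Klf4 were 6.50-fold, 5.13-fold and 4.66-fold higher against the same markers. Against the endothelial markers, Klf2 differed by 1.10-fold (0.953 to 1.26), a difference within counting error, Klf11 by 0.921-fold (0.787 to 1.08) and Klf4 by 2.87-fold (2.43 to 3.38). Against the podocyte markers Klf2 was at 0.985 (0.854 to 1.14), Klf15 was at 0.507 (0.483 to 0.533) and Klf4 at 2.57 (2.18 to 3.04) of their Control ratios. Against the collecting duct markers Klf5 was 2.14-fold higher (1.498 to 3.06), and Klf10 at 0.981 (0.879 to 1.09) and Klf13 at 1.03 (0.952 to 1.11) could not be placed on a side of 1. A factor could thus lie near 1 against more than 1 list, as Klf2 did, so a value near 1 does not tie a factor to a cell type. Against the macrophage markers all 10 factors were lower, with Klf6 at 0.715 (0.667 to 0.766), and against the fibroblast and mural cell markers Klf6 was 1.09-fold higher (1.01 to 1.16) while Klf5 could not be placed on a side of 1 (0.600 to 1.23). The part of cell composition in the differences of the 10 factors was not tested.

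**Figure D4:**
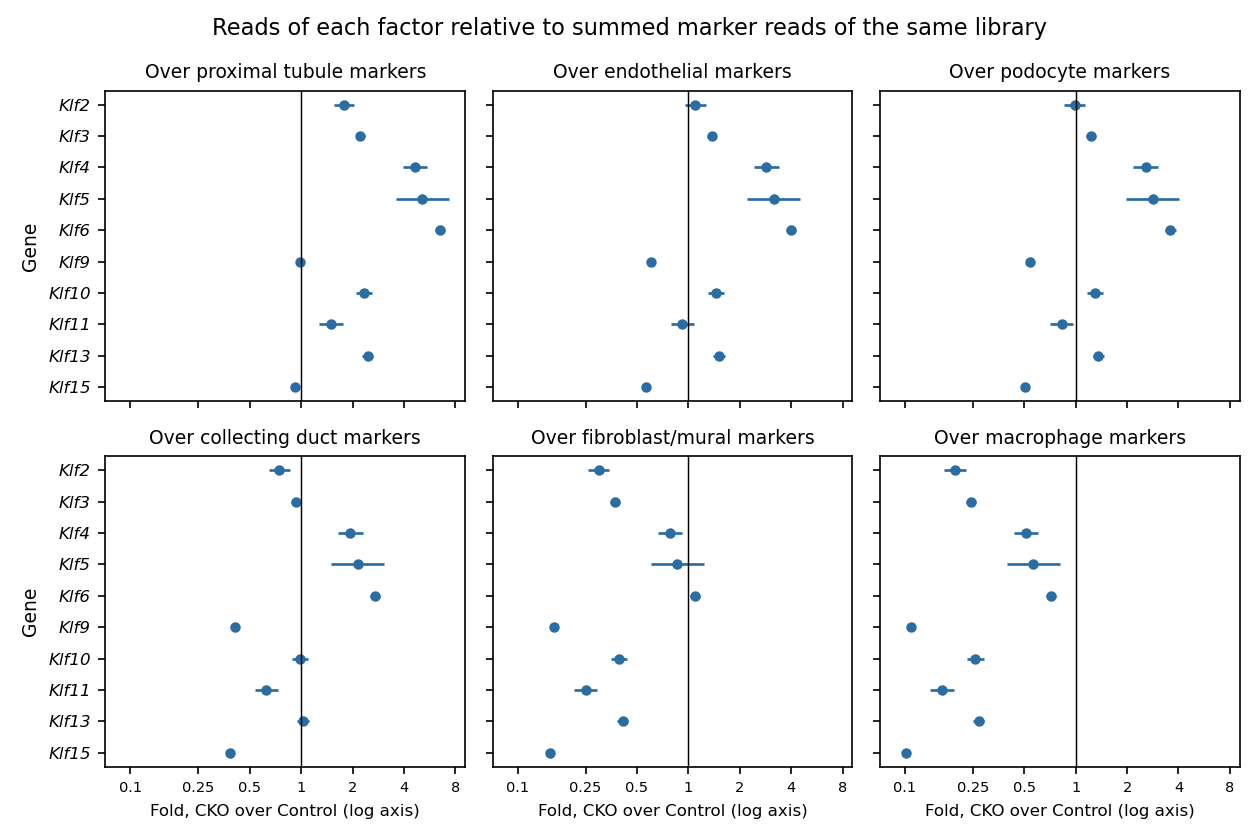
Reads of each factor divided by the summed reads of a marker list in the same library, shown as the fold of CKO over Control on a log axis, 1 panel per list, with 95% intervals for counting error by the normal approximation. The vertical line marks 1. Klf9 and Klf15 lie near the line against proximal tubule markers at 0.981 and 0.919, Klf2 crosses it against endothelial markers, and all factors lie left of it against macrophage markers.

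Upstream of Klf2 and Klf4, the MEK5-ERK5-MEF2 pathway carries the flow signal in endothelium. Of 9 genes listed for it, among them Krit1 (0.10) and Ccm2 (0.15), which restrain the pathway, 8 were above 0, 0 were past 2-fold and the median log2 ratio was 0.24 (0.66 under equal totals). Mapk7, which encodes ERK5, was highest at 0.77, Map2k5, which encodes MEK5, lowest at -0.45, and Map3k2 had the most Control reads (1763 and 2921). Of the 14 coregulators of the family, 8 were higher, 0 were past 2-fold and the median was 0.04. Under equal totals 11 coregulators were higher with a median of 0.46, and on the deposited scale 13 with a median of 0.62. Ctbp2 was highest at 0.63, and Wwp1, a ubiquitin ligase of Klf2 and Klf5, was lowest at -0.79 with 9562 Control and 8281 CKO reads. Both lists stayed within 2-fold under the main scaling. Upward past 2-fold were 2 pathway genes and 1 coregulator under equal totals, and 3 and 1 on the deposited scale. The part of this pathway in Klf2 and Klf4 was not tested.

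Of the endothelial genes that Klf2 and Klf4 are known to induce, 4 of 4 had ratios above 0 and 0 were past 2-fold (1 under equal totals). Nos3, which encodes endothelial nitric oxide synthase, was at 0.38, Thbd, which encodes thrombomodulin, at 0.88, S1pr1 at 0.17 and Tek at 0.08, and the intervals of S1pr1 (-0.01 to 0.36) and Tek (-0.01 to 0.17) hold 0. Of the genes they are known to repress, 4 of 5 were at least 2-fold higher, and the median was 3.05, or 2.09 with no floor subtracted and the median ratio. The vasoconstrictor gene Edn1 was covered by 26 Control and 335 CKO reads, a log2 ratio of 3.05. The adhesion molecule gene Vcam1 had 306 and 6520 reads and a ratio of 3.82, the chemokine gene Ccl2 13 and 1559 reads and a ratio of 6.22, and the tissue factor gene F3 796 and 3019 reads and a ratio of 1.34. Sele, which encodes E-selectin and is restricted to endothelium, had 14 and 22 reads, too few to place its ratio of 0.06 on a side of 0 (-0.96 to 1.15). Vcam1, Ccl2 and F3 are also made by tubule, immune and stromal cells, whose markers are given above. Which cells the reads of these genes came from, those of Edn1 included, cannot be told in whole kidney.

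Klf9 and Klf15 are targets of the glucocorticoid receptor, so other genes of that response were examined. Of 8 glucocorticoid-responsive genes, 6 were higher, 0 were past 2-fold and the median was 0.32. Under equal totals 7 were higher and 3 past 2-fold, and on the deposited scale 8 and 4. Per1 was highest at 0.98, Fkbp5 lowest at -0.52, and Errfi1 had the most Control reads (11025 and 12443). The glucocorticoid receptor gene Nr3c1 was covered by 3547 Control and 4964 CKO reads, at a log2 ratio of -0.10, and the mineralocorticoid receptor gene Nr3c2 was at 0.16. The genes of the glucocorticoid-converting enzymes Hsd11b1 and Hsd11b2 were at 0.44 and 0.46, and Hsd11b2 was also counted among the collecting duct markers. The part of glucocorticoid action in Klf9 and Klf15 was not tested. Of 5 genes of thyroid hormone action, Thra was at -0.03, Thrb at -0.48, Dio1 at 0.68, Thrsp at -1.19 and Hr, a thyroid hormone-induced corepressor gene, at 1.19. The median of that list was -0.03, positive under equal totals (0.39) and on the deposited scale (0.56). It was just above 0 with equal upper quartiles (0.005) and with the median ratio of genes with at least 100 reads in both libraries (0.029). With no floor subtracted and the median ratio, 0 genes of the list passed 2-fold in either direction.

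Both Klf9 and Klf15 cycle with the circadian clock, and the hour of tissue collection is not given in the sources used here. Of 17 clock and output genes, 10 were higher (16 on the deposited scale), 1 was at least 2-fold higher (Bhlhe41 at 1.17) and the median was 0.31. The genes past 2-fold numbered 3 with equal upper quartiles, 5 under equal totals and 7 on the deposited scale. Nr1d1 was lowest at -0.83, with 3321 Control and 2805 CKO reads, and Tef, at -0.38, had the most Control reads (11638 and 13376). The other lower genes were Nfil3 at -0.65, Arntl at -0.56, Hlf at -0.43, Clock at -0.33 and Npas2 at -0.22. The interval of Npas2 holds 0 (-0.70 to 0.26). The higher genes ran from Nr1d2 at 0.24 to Bhlhe41, with Cry1 at 0.99, Per1 at 0.98 and Ciart at 0.95. The count and the median of the list pool these directions. Whether the hour differed between the groups was not tested.

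Klf15 is known in liver and muscle as an activator of branched-chain amino acid breakdown. Of 24 genes of that pathway, 24 were lower, 4 at least 2-fold lower, and the median log2 ratio was -0.68. Bcat1 was lowest at -2.09, Ppm1k highest at -0.07, and Aldh6a1 had the most Control reads (40314 and 31584). The median stayed below 0 under every scaling tried, at -0.26 under equal totals, where 22 genes were lower and 2 past 2-fold, and at -0.09 on the deposited scale, where 16 were lower and 1 past 2-fold. Its summed reads were 5387 per 1000000 in Control and 3784 in CKO, and the pathway is active in proximal tubule, whose markers had a median of -0.80 in the main setting, as given above with its other values.

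Klf10 and Klf11 belong to the early TGF-beta response. Of 10 genes of that response, 10 were higher and 2 at least 2-fold higher, with a median of 0.68. Under equal totals 6 passed 2-fold and the median was 1.10. Tgfbr2 was lowest at 0.04 and had the most Control reads (3065 and 4714). Klf10 lay below the median of that list and Klf11 below its lowest gene. Klf6 and Klf4 can act as immediate early genes, and of 12 such genes 12 were higher and 11 at least 2-fold higher, with a median of 2.34. Egr2 was highest at 4.25, Zfp36, which encodes an mRNA decay factor, lowest at 0.91, and Jun had the most Control reads (1026 and 4077). Klf6 and Klf4 lay below the median of that list and above its lowest gene.

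Of 6 genes tied to proliferation downstream of Klf5, 5 were higher and 4 at least 2-fold higher, with a median of 1.497. Cdk1 was at 3.13, Ccnb1 at 3.03, Birc5 at 1.55 and Myc at 1.45, and the growth factor gene Pdgfa was at 0.51. Ccnd1, which encodes cyclin D1 and had the most Control reads (13010 and 15586), was at -0.32, and under equal totals 6 of the 6 were higher. With no floor subtracted and the median ratio, 3 passed 2-fold and the median was 1.15. The mitotic genes were read at low counts, Cdk1 at 24 and 327, Ccnb1 at 16 and 207 and Birc5 at 34 and 152.

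**Figure D5:**
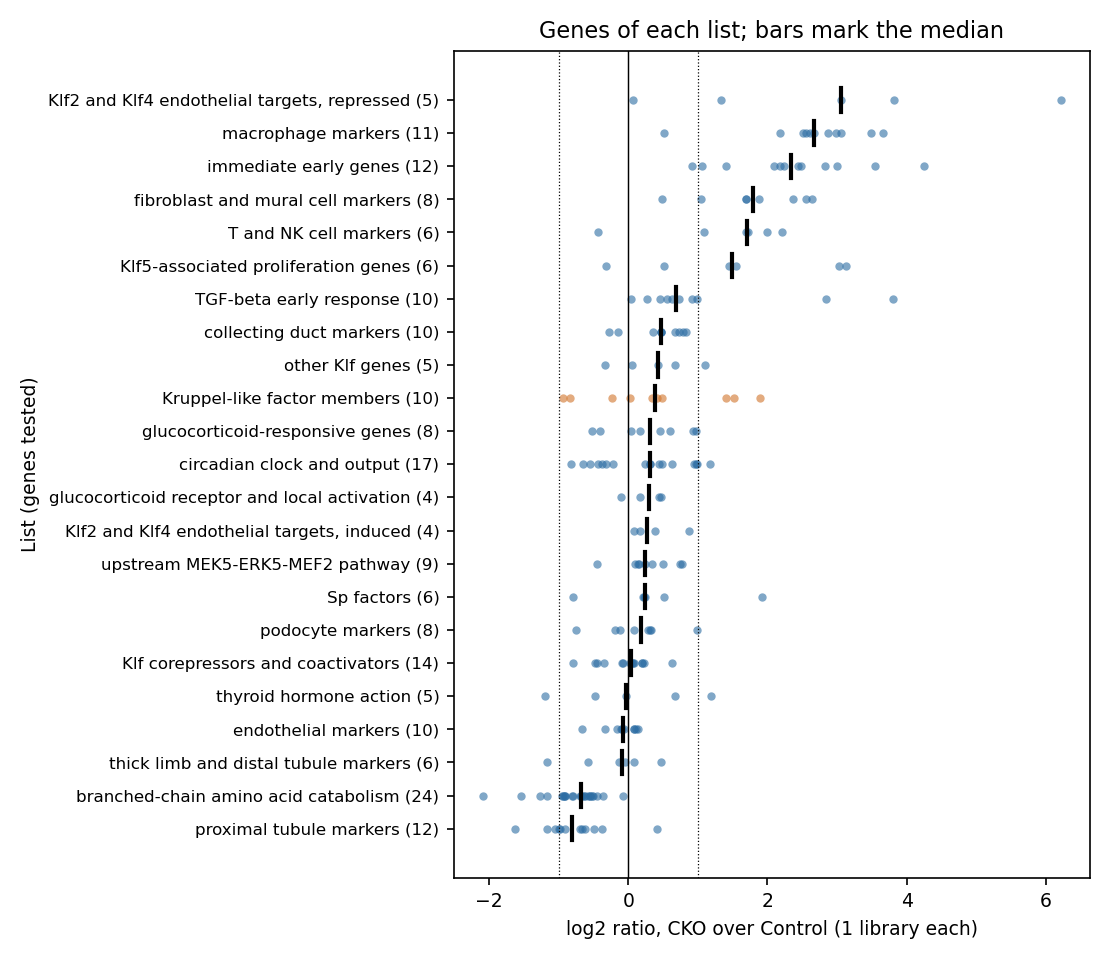
Log2 ratio of CKO over Control reads for each gene tested in each list with at least 4 genes tested, ordered by the list's median (bars), with the 10 factors in orange. Dotted lines mark 2-fold. The factors spread from -0.94 to 1.89 around a median of 0.38, between proximal tubule markers at -0.80 and macrophage markers at 2.67.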

How the data were processed

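Whole kidney RNA-seq was analysed for 1 Control and 1 CKO library. Per the submitters' processing notes and the study's methods, the authors used STAR 2.7.3a for alignment to mm10, HTSeq for counting and DESeq2 for normalization. The notes also name Cufflinks 2.2.1 and FastQC. The deposited values were treated as a score: whole numbers the authors call normalized counts, with lowest values of 35 (Control) and 51 (CKO). The column minimum minus 1 (34 and 50) was subtracted. That the remainder is reads is an inference from the values.

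CKO reads were multiplied by 0.667, a pseudocount of 1 was added, and a gene that reached 10 scaled reads in either library was set against a threshold of 2-fold. With 1 library per group no test between groups was made. PCR copies are not independent, so the Clopper-Pearson intervals understate the error. The members and the gene lists were chosen with earlier results of these data known. Named were all members, the other Klf and Sp genes in the table, Zc3h12b, and from each list the highest, the lowest and the most read gene, or every gene of a list of 6 or fewer. Further genes, such as those of the clock list, were named after the values were seen. Some genes that this rule covers are not reported here. Alternatives tried were a pseudocount of 0.1 or 10, a filter of 50 reads or none, other scalings, other floors, and thresholds of 1.5-fold and 4-fold. Gene positions and lengths came from GENCODE M21 (GRCm38) and promoters from RefSeq. Levels per 1000000 reads used the total reads of each library. Steps were tested on simulated data. Python 3.11.15, numpy 2.4.6, pandas 2.3.3, scipy 1.17.1 and matplotlib 3.10.9 were used.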

Additional observations from a re-analysis of the deposited data

How the results depend on the processing

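Of the 10 factors, 8 kept their direction under all alternatives tried, Klf11 did not, and Klf2, whose interval holds 0, had none to keep (0.0049 to 0.60). The log2 ratio ranged from 1.87 to 2.44 for Klf6, 1.26 to 1.83 for Klf4, 0.9955 to 1.94 for Klf5, -0.86 to -0.25 for Klf9 and -0.95 to -0.34 for Klf15. With equal library totals, Klf11 was at 0.19, Klf12 at 0.087 and the median of the thick limb and distal tubule markers at 0.33, all of them negative in the main setting. On the deposited scale they were at 0.38, 0.26 and 0.49. The median of the 10 factors was 0.80 under equal totals and 0.95 on the deposited scale.

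Genes at least 2-fold higher and lower numbered 2334 and 934 in the main setting, 3870 and 437 with equal totals, 3574 and 131 on the deposited scale, and 1196 and 463 with no floor subtracted and the median ratio. With at least 50 scaled reads, 617 were lower. A threshold of 1.5-fold gave 3801 and 2423 genes and 2 factors lower (Klf9 and Klf15), and 4-fold gave 749 and 166 genes and 0 factors higher. With no floor subtracted 2 factors were at least 2-fold higher, and on the deposited scale, with neither floor nor scaling, 4. The causes were not tested beyond the construction of each setting. No paired analysis was possible because there was 1 library in each group.

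Low counts limit Klf5, Klf8, Klf1 and Sp6, whose intervals are the widest of the family. Counting each single gene or list once per setting, 372 values stayed within the main counting interval and 77 moved beyond it. The 6 above changed sign from an interval that lay on 1 side of 0. The filter settings leave the ratio of a single gene unchanged, so part of the 372 was fixed in advance. For a list, the interval was formed from the medians of the bounds of its genes and is not a counting interval of its median. With 1 library per group, differences between mice, in the hour of collection or in library preparation cannot be told apart from the difference between groups.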

Other observations

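Adenine- and uridine-rich elements built on the pentamer ATTTA (in DNA letters) mark many short-lived mRNAs, and the pentamer was counted after the stop codon of the longest coding transcript of each gene, a step added after the values were seen. At least 1 ATTTA was present in 10 of the 10 factors and in 71.1% of 13752 tested genes with at least 100 bases after the stop codon. At least 5 were present in 3 of the 10 (Klf9 with 8, Klf3 with 7 and Klf6 with 7) and in 22.8% of those genes. The stretch after the stop codon was longer in the factors, with a median of 2017 bases against 1185, and per kilobase the medians were 1.99 and 1.34. Over the 10 factors the density ran from 0.582 per kilobase in Klf13 to 2.68 in Klf10, with Klf6 at 2.25, Klf5 at 2.34, Klf4 at 1.02, Klf9 at 2.48 and Klf15 at 2.11. Of the Klf genes outside the members, Klf7 held 18 in 6266 bases and Klf1 held 0 in 352 bases.

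Lymphocyte and neutrophil markers were read at low counts. Of 6 T and NK cell markers tested, 5 were at least 2-fold higher in the CKO library, with a median log2 ratio of 1.71. Ratios ran from Trac at -0.44 (99 Control and 109 CKO reads, the most of the list) to Cd3g at 2.22. Cd3e (6 and 33 reads), Cd8a (8 and 52) and Nkg7 (7 and 24) passed the filter only through the CKO library. A gene that passes this way can only be higher, so the filter partly set that count and median. Nkg7 could not be placed on a side of 0 (-0.07 to 2.65). Cd3g (13 and 96 reads), Cd4 (17 and 86, at 1.70) and Trac passed the filter in the Control library too. With no floor subtracted and the median ratio, 1 of 7 passed 2-fold and the median was 0.47. Of 3 neutrophil markers in the table, S100a8 was at 0.77, S100a9 at 1.64 and Csf3r at 2.37, with a median of 0.69 under that setting. S100a8, with 7 and 19 reads, passed the filter only through the CKO library and could not be placed on a side of 0 (-0.46 to 2.35). Of 4 B cell markers only Cd79b was in the table, with 23 and 40 reads and a ratio of 0.21 (-0.56 to 1.02). Among the thick limb and distal tubule markers, Umod was at 0.47 with 90047 and 187056 reads, Slc12a3 at 0.08, Kcnj1 at -0.04, Slc12a1 at -0.14, Calb1 at -0.58 and Pvalb at -1.17. The median of that list was -0.09 and turned positive under equal totals (0.33) and on the deposited scale (0.49).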
